A study of Homo sapiens with 15 samples.

Results

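Surface proteins that mark myeloma cells, and that antibodies, bispecific molecules or CAR T cells are directed at, are followed here at the level of their transcripts. The 9 genes were chosen by symbol: TNFRSF17 (which encodes BCMA), TNFRSF13B (TACI), SDC1 (CD138), CD38, SLAMF7 (CS1), CD28, GPRC5D, FCRL5 and LY9 (CD229). Each symbol matched 1 of the 47459 gene rows, and all 9 genes passed the filter for testing. FCRL5 was low, but 14 of its 15 libraries reached the value of 5 that the filter asks for.

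RNA was measured in MM.1S, a human multiple myeloma cell line, so all groups share the genotype of 1 line. The cells had spent 6 h with dCBP-1 (100 nM), with A-485 and GNE-781 together (100 nM of each, called the combination), with GNE-781 (100 nM), with A-485 (100 nM) or with the solvent DMSO, and each of the 5 groups had 3 libraries. CBP and p300 are paralogous coactivators that acetylate histones at enhancers and promoters. A-485 blocks their acetyltransferase activity, GNE-781 their bromodomains, and dCBP-1 joins a bromodomain ligand to a cereblon ligand and is made to have both proteins degraded. A cereblon ligand without the bromodomain ligand was not among the groups analysed here, and what each end of dCBP-1 contributes cannot be told apart. In 2 combination libraries the treatment field names GNE-782 and GNE-783 where the titles name GNE781, and the molecule field of the libraries says genomic DNA although the protocol describes RNA. Titles were used for the groups.

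Plasma cells and the myelomas that arise from them replace much of the B cell surface with their own set of receptors. BCMA and TACI bind the ligands APRIL and BAFF and feed survival signals through TRAF proteins and NF-kB. CD138 carries heparan sulfate chains that hold growth factors, CD38 consumes NAD, SLAMF7 and LY9 are homophilic receptors of the SLAM family, and CD28 is a costimulatory receptor that myeloma cells share with T cells. GPRC5D is an orphan G protein-coupled receptor and FCRL5 an Fc receptor-like protein. Transcript levels do not measure the protein at the cell surface, which for BCMA and CD138 is also cut off by proteases.

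Upstream sequence from RefSeq (GRCh38.p14) was available for 6 of the 9 symbols, and the 250 bases before the gene start are printed for 3 of them that fell with dCBP-1, each on its coding strand, 5′ to 3′. Capitals mark matches, on either strand, to the short motifs described after the results for the neighbouring genes.
TNFRSF13B, chr17:16972119-16972368, minus strand: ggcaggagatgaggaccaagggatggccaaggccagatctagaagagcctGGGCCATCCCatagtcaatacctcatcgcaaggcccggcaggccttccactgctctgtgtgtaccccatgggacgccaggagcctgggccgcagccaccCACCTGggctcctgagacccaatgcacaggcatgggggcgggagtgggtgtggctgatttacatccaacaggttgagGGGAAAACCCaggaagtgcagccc
SDC1, chr2:20225476-20225725, minus strand: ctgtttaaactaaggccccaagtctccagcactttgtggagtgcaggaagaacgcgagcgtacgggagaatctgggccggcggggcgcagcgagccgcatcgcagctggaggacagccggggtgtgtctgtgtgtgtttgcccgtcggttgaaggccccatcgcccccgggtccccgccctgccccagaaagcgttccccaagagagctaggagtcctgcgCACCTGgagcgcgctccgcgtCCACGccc
CD38, chr4:15778078-15778327, plus strand: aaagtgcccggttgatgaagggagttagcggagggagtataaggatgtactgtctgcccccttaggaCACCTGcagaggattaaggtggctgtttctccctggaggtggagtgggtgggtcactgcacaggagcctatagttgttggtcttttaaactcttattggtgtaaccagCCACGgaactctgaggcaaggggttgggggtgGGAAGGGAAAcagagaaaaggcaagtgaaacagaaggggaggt

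Levels are normalized read counts, which are reads per gene divided by 1 factor per library. Reads came from the 3′ ends of transcripts, so levels are compared between groups and not between genes. Depth was 13.10 to 18.29 M reads. In DMSO replicates 1 and 2 the mitochondrial share of reads was 23.1% and 19.7%, while it was 14.3% to 17% in the remaining 13 libraries. At equal depth 16265 and 17372 genes had a read in these 2 DMSO libraries, and 18748 to 20560 in the others. The main counts below are therefore also given without them. That setting keeps replicate 3 as the only DMSO library, so there is no spread within DMSO. A call lost there need not mean a smaller change. Where only a value is given for that setting, it shows the size of the change and not whether a call held. All 10 plasma cell markers (such as PRDM1, IRF4 and JCHAIN) were tested; their summed level was 31275 to 32771 with dCBP-1 and 63159 to 66768 with DMSO. For 8 B cell markers the summed level was 77.5 to 120 with dCBP-1 and 331 to 414 with DMSO, where CIITA averaged 12.6 with dCBP-1 and 248 with DMSO. For 9 T and NK cell markers it was 174 to 205 with dCBP-1 and 230 to 319 with DMSO. Most of that sum was NCAM1 (mean 173 with dCBP-1 and 257 with DMSO), which is also listed among the myeloma surface antigens; CD3D and NKG7 had no read, and CD2, CD3E and CD3G averaged at most 7.46 in these groups. For 7 myeloid markers the sum was 42.7 to 53.1 with dCBP-1 and 44.2 to 102 with DMSO, most of it CD68, and CSF1R and FCGR3A had no read. Fewer cells of a kind and less RNA per cell cannot be told apart in bulk libraries.

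With dCBP-1, 8 of the 9 surface target transcripts fell and 0 rose at a limma adjusted p below 0.05. Of all 16104 genes tested, 37.8% were called, 18.5% lower and 19.3% higher. The combination lowered 7 of the 9 (21% of all genes called, 9.6% lower), GNE-781 lowered 5 (16.6% of all genes, 8.81% lower) and A-485 lowered 2 (2.14% of all genes, 1.79% lower). The median log2 fold change of the 9 was −1.64 with dCBP-1, −0.92 with the combination, −0.73 with GNE-781 and −0.53 with A-485, where the medians over all genes tested were 0.07, 0.09, 0.07 and −0.03 in the same order. The 4 comparisons share the DMSO libraries. Without DMSO replicates 1 and 2 together the counts of falls were 6, 5, 4 and 0, while 24%, 6.82%, 5.61% and 0.082% of all genes were called. The A-485 count was 5 of the 9 under TMM and median-ratio scaling (2.38% of all genes called under each), edgeR (2.26%) and DESeq2 (6.73%), and 4 under quantile normalization (2.05%). It was 2 with a replicate block (1.46%), 1 with only A-485 and DMSO fitted (0.484%), 1 without A-485 replicate 3 (1.15%) and 0 without DMSO replicate 2 (0.433%). The direction of the A-485 calls over all genes moved with the scaling: 83.8% of them were lower as deposited, 62.2% under TMM, 64.2% under median-ratio scaling and 56.1% under quantile normalization.

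**Figure D1:**
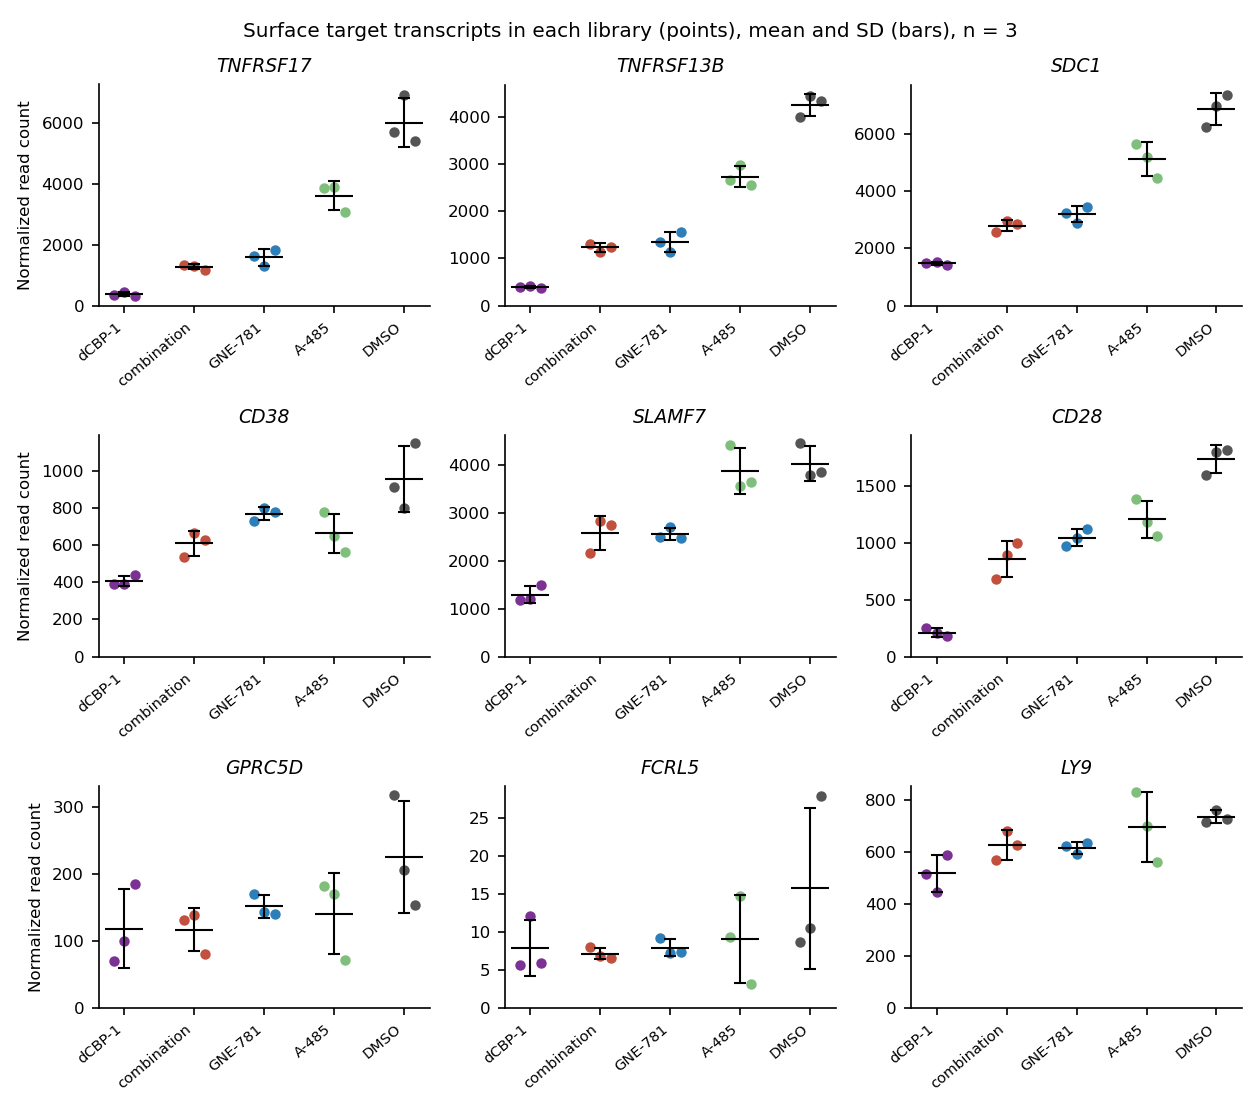
Normalized read counts of the 9 surface target transcripts (vertical axes, linear, from 0) in each of the 15 libraries, by treatment. Points are libraries, long bars means and short bars 1 SD (n = 3). TNFRSF17 and TNFRSF13B step down in the order DMSO, A-485, then GNE-781 and the combination, then dCBP-1, whereas LY9, GPRC5D and FCRL5 show libraries of different groups at like levels.

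BCMA and TACI, the paired TNF receptors, were among the transcripts with the largest changes. TNFRSF17 (ENSG00000048462) had 356, 445 and 324 normalized read counts with dCBP-1, 1329, 1313 and 1183 with the combination, 1634, 1294 and 1840 with GNE-781, 3874, 3907 and 3089 with A-485, and 5714, 6948 and 5409 with DMSO. The dCBP-1 libraries lay far below all others, those of the combination and GNE-781 overlapped each other, and the A-485 libraries stood between these and DMSO without overlap. The mean was 375 ± 62.9 with dCBP-1, 1275 ± 80.2 with the combination, 1590 ± 276 with GNE-781, 3623 ± 463 with A-485 and 6023 ± 815 with DMSO (SD, n = 3 each). These means amount to 6.22%, 21.2%, 26.4% and 60.2% of the DMSO mean in the 4 treatments in that order.

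On the log2 scale TNFRSF17 fell by 4.01 ± 0.15 with dCBP-1 (SE; limma adjusted p = 5.6e-19), a 16.1-fold reduction. It fell by 2.23 ± 0.15 with the combination (adjusted p = 3.5e-11), by 1.93 ± 0.15 with GNE-781 (adjusted p = 5.8e-10) and by 0.73 ± 0.15 with A-485 (adjusted p = 0.0065). By size of fall with dCBP-1 it ranked 26th of 16104 genes, and by p it ranked 1st with the combination. The A-485 call did not survive leaving out DMSO replicate 2 (−0.63, limma adjusted p = 0.082). It was also lost when A-485 replicate 3 was dropped (−0.62, adjusted p = 0.051). With DMSO replicates 1 and 2 both dropped the A-485 value was −0.59. Those for dCBP-1, the combination and GNE-781 were then −3.86, −2.09 and −1.78.

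TNFRSF13B (ENSG00000240505), whose upstream bases are printed above, had 391, 405 and 377 normalized read counts with dCBP-1, 1313, 1135 and 1247 with the combination, 1336, 1141 and 1553 with GNE-781, 2667, 2980 and 2545 with A-485, and 3991, 4428 and 4322 with DMSO. The order was that of TNFRSF17, and again only the combination and GNE-781 libraries overlapped. Means were 391 ± 14.2, 1232 ± 89.9, 1343 ± 206 and 2730 ± 225 in the 4 treatments in the same order, and 4247 ± 228 with DMSO. TNFRSF13B fell by 3.44 ± 0.13 with dCBP-1 (limma adjusted p = 6.8e-19), by 1.79 ± 0.13 with the combination (adjusted p = 1.1e-10), by 1.67 ± 0.13 with GNE-781 (adjusted p = 5.8e-10) and by 0.64 ± 0.13 with A-485 (adjusted p = 0.0065). Dropping DMSO replicate 2 ended the A-485 call (−0.61, limma adjusted p = 0.06). With DMSO replicates 1 and 2 both dropped the A-485 value was −0.67.

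The levels of the paired receptors were also set against each other. Within a library the log2 ratio of TNFRSF17 to TNFRSF13B averaged −0.07 ± 0.18 with dCBP-1, 0.05 ± 0.15 with the combination, 0.24 ± 0.05 with GNE-781, 0.40 ± 0.13 with A-485 and 0.50 ± 0.16 with DMSO (SD, n = 3 each). All dCBP-1, combination and GNE-781 libraries lay below all DMSO libraries in this ratio, while A-485 overlapped DMSO. An exact two-sided permutation test gave p = 0.1 for each of the first 3 treatments, the smallest it can give with 3 against 3, and p = 0.5 for A-485, so that none could pass 0.05.

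SDC1 (ENSG00000115884), the gene of the proteoglycan used to recognise plasma cells, had 1475, 1512 and 1435 normalized read counts with dCBP-1, 2583, 2950 and 2848 with the combination, 3255, 2892 and 3440 with GNE-781, 5655, 5213 and 4479 with A-485, and 6254, 6976 and 7369 with DMSO. The 3 dCBP-1 libraries were nearly level and lowest, and every A-485 library lay below every DMSO library. Means were 1474 ± 38.7, 2794 ± 190, 3196 ± 279 and 5116 ± 594 in the 4 treatments, and 6866 ± 566 with DMSO. SDC1 fell by 2.22 ± 0.12 with dCBP-1 (limma adjusted p = 7.8e-15), by 1.30 ± 0.12 with the combination (adjusted p = 2.3e-08) and by 1.10 ± 0.12 with GNE-781 (adjusted p = 6.1e-07). With A-485 the value was −0.43 (95% interval −0.68 to −0.17), which was not called (adjusted p = 0.066), but was under TMM scaling (−0.37, adjusted p = 0.03).

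CD38 (ENSG00000004468), the NAD-consuming ectoenzyme, changed less. It had 393, 391 and 439 normalized read counts with dCBP-1, 536, 667 and 626 with the combination, 730, 801 and 779 with GNE-781, 777, 650 and 565 with A-485, and 913, 800 and 1152 with DMSO. The dCBP-1 libraries were lowest, GNE-781 overlapped DMSO by 1 library, and A-485 lay between. CD38 fell by 1.21 ± 0.15 with dCBP-1 (limma adjusted p = 1.8e-07), to 42.7% of the DMSO mean, and by 0.64 ± 0.15 with the combination (adjusted p = 0.003). With GNE-781 it had −0.30 (95% interval −0.60 to 0.01, adjusted p = 0.19) and with A-485 −0.52 (adjusted p = 0.066). Both single-inhibitor values passed the threshold under TMM scaling (−0.32, adjusted p = 0.04, and −0.46, adjusted p = 0.03).

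The genes of the SLAM family receptors SLAMF7 and LY9 lie close together, with 1 gene of the RefSeq order between them. SLAMF7 (ENSG00000026751), the target of elotuzumab, had 1179, 1203 and 1502 normalized read counts with dCBP-1, 2167, 2824 and 2757 with the combination, 2504, 2705 and 2485 with GNE-781, 4418, 3556 and 3644 with A-485, and 4449, 3788 and 3844 with DMSO. The A-485 and DMSO libraries overlapped, as did those of the combination and GNE-781, and dCBP-1 was lowest without overlap. SLAMF7 fell by 1.64 ± 0.14 with dCBP-1 (limma adjusted p = 4.3e-11), to 32.1% of the DMSO mean, and by 0.65 ± 0.14 with the combination (adjusted p = 0.00095) and with GNE-781 (adjusted p = 0.0013). With A-485 it had −0.06 (95% interval −0.34 to 0.22, adjusted p = 0.88). Without DMSO replicates 1 and 2 together the combination and GNE-781 each had −0.58.

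LY9 (ENSG00000122224) had 514, 446 and 588 normalized read counts with dCBP-1, 566, 681 and 625 with the combination, 620, 590 and 633 with GNE-781, 829, 700 and 560 with A-485, and 715, 761 and 727 with DMSO. The dCBP-1, combination and GNE-781 libraries lay below DMSO, by little, and A-485 ran across it. LY9 fell by 0.52 ± 0.15 with dCBP-1 (limma adjusted p = 0.0064), to 70.3% of the DMSO mean, a call lost without dCBP-1 replicate 2 (−0.42, adjusted p = 0.055). With DMSO replicates 1 and 2 both dropped the dCBP-1 value was −0.50. LY9 was not called with the combination (−0.24), GNE-781 (−0.26) or A-485 (−0.09). The log2 ratio of SLAMF7 to LY9 averaged 1.33 ± 0.12 with dCBP-1, 2.04 ± 0.10 with the combination, 2.06 ± 0.12 with GNE-781, 2.49 ± 0.19 with A-485 and 2.45 ± 0.17 with DMSO (SD, n = 3 each; exact permutation p = 0.1, 0.1, 0.1 and 0.6 against DMSO, where 0.1 is the smallest possible, so that none could pass 0.05).

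CD28 (ENSG00000178562), the costimulatory receptor, was far lower with dCBP-1 than with any inhibitor. It had 251, 205 and 177 normalized read counts with dCBP-1, 681, 897 and 998 with the combination, 976, 1043 and 1126 with GNE-781, 1384, 1184 and 1063 with A-485, and 1598, 1804 and 1816 with DMSO. The GNE-781 libraries overlapped those of the combination and those of A-485, while every combination library lay below every A-485 library. All inhibitor libraries lay below DMSO, and dCBP-1 was well under them. CD28 fell by 3.05 ± 0.15 with dCBP-1 (limma adjusted p = 7e-16), to 12.1% of the DMSO mean, by 1.03 ± 0.15 with the combination (adjusted p = 1.9e-05) and by 0.73 ± 0.15 with GNE-781 (adjusted p = 0.0014). With A-485 it had −0.53 (adjusted p = 0.066), which was called under TMM scaling (−0.47, adjusted p = 0.041).

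GPRC5D (ENSG00000111291), the orphan receptor that talquetamab binds, was low and scattered. It had 69.8, 100 and 184 normalized read counts with dCBP-1, 131, 138 and 79.7 with the combination, 170, 143 and 140 with GNE-781, 181, 169 and 70.4 with A-485, and 317, 206 and 153 with DMSO. A dCBP-1 library lay above a DMSO library, and the DMSO libraries themselves ran from 153 to 317. GPRC5D was called with dCBP-1 (−0.98 ± 0.32, limma adjusted p = 0.017) and the combination (−0.92 ± 0.32, adjusted p = 0.039), but not without DMSO replicate 1 (−0.70, adjusted p = 0.12, and −0.64, adjusted p = 0.21) nor with DESeq2 (−0.96, adjusted p = 0.069, and −1.01, adjusted p = 0.076). The dCBP-1 value was −0.66 without dCBP-1 replicate 1 (limma adjusted p = 0.14) and the combination value −0.67 without combination replicate 3 (adjusted p = 0.17). With DMSO replicates 1 and 2 both dropped these values were −0.49 and −0.43 (adjusted p = 0.46 and 0.63).

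FCRL5 (ENSG00000143297) was near the limit of detection, with 4 to 23 reads in a library. Its normalized read counts were 5.59, 12.1 and 5.93 with dCBP-1, 7.96, 6.79 and 6.55 with the combination, 9.21, 7.14 and 7.38 with GNE-781, 9.25, 14.7 and 3.16 with A-485, and 8.65, 10.5 and 27.9 with DMSO. A single DMSO library stood above the rest, and no comparison was called. The interval against DMSO was −2.00 to 0.38 with dCBP-1, so changes of several fold could not be detected at this depth.

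**Figure D2:**
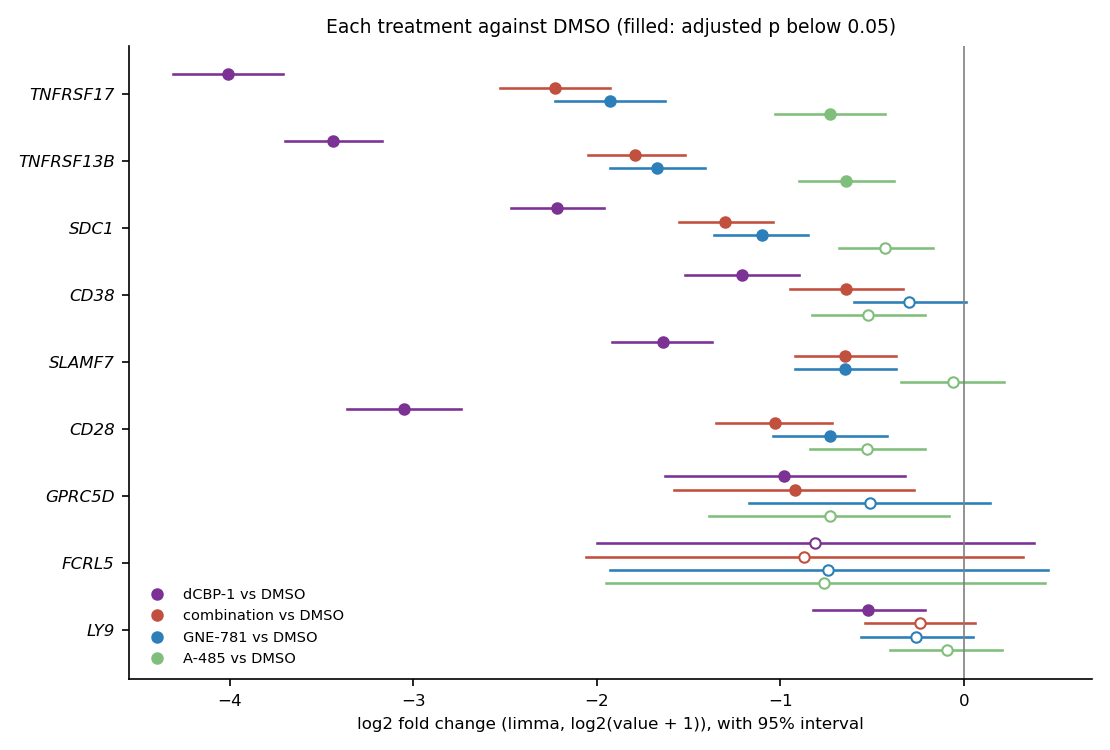
Log2 fold change of each surface target against DMSO (horizontal axis, limma, log2 of value + 1) for the 4 treatments, with 95% intervals; filled points have an adjusted p below 0.05. The dCBP-1 points of TNFRSF17, TNFRSF13B, SDC1, SLAMF7 and CD28 lie left of the other treatments with intervals that do not meet theirs.

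The treatments were then set against each other at the shared dose and time. The degrader lowered 6 of the 9 transcripts relative to the combination (6.17% of all genes called, 5.61% lower): CD28 by a log2 difference of 2.02 ± 0.15 (SE; limma adjusted p = 3.5e-11), TNFRSF17 by 1.77 ± 0.15 (adjusted p = 2.4e-10), TNFRSF13B by 1.65 ± 0.13 (adjusted p = 5.6e-11), SLAMF7 by 0.99 ± 0.14, SDC1 by 0.92 ± 0.12 and CD38 by 0.58 ± 0.15. CD28 thus had the largest gap of the 9 between degrader and combination. Over all genes, 91% of the calls in this comparison were lower as deposited, against 80.1% under TMM, 76% under median-ratio scaling and 66.4% under quantile normalization. The CD38 call (adjusted p = 0.015) ended without combination replicate 2 or 3 or without dCBP-1 replicate 1 or 2 (−0.51 to −0.55, adjusted p = 0.062 to 0.1). LY9 had −0.28 (95% interval −0.58 to 0.02), GPRC5D −0.06 (−0.71 to 0.60) and FCRL5 0.06 (−1.13 to 1.26).

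Relative to GNE-781 the same 6 genes were lower with dCBP-1 (9.31% of all genes called, 7.13% lower), with CD28 at −2.32 ± 0.15 and TNFRSF17 at −2.08 ± 0.15 (limma adjusted p = 1.2e-12 and 5.5e-12). Of all calls in that comparison 76.5% were lower as deposited and 56.6% under quantile normalization. Relative to A-485, 7 were lower (24.5% of all genes called, 11.6% lower), with TNFRSF17 at −3.27 ± 0.15 and TNFRSF13B at −2.80 ± 0.13 (adjusted p = 8e-17 and 1.2e-16). The seventh was LY9 (−0.42, adjusted p = 0.036), a call lost under 7 settings. Leaving out A-485 replicate 1 gave −0.29 (limma adjusted p = 0.19), and leaving out dCBP-1 replicate 2 gave −0.32 (adjusted p = 0.19).

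The inhibitors also differed from each other. GNE-781 gave lower levels than A-485 for 4 of the 9 (1% of all genes called, 0.727% lower): TNFRSF17 (−1.19 ± 0.15) and TNFRSF13B (−1.03 ± 0.13), each with a limma adjusted p of 1.9e-05, SDC1 (−0.68 ± 0.12, adjusted p = 0.0029) and SLAMF7 (−0.59 ± 0.14, adjusted p = 0.024). The SLAMF7 call was lost under 7 settings; leaving out A-485 replicate 1 gave −0.49 (limma adjusted p = 0.095) and leaving out GNE-781 replicate 1 gave −0.57 (adjusted p = 0.14). CD28 had −0.20 (95% interval −0.51 to 0.11) and CD38 0.22 (−0.08 to 0.53), and neither was called. The combination lowered the same 4 relative to A-485 (3.2% of all genes called, 1.57% lower), with TNFRSF17 at −1.50 ± 0.15 (adjusted p = 2.2e-07) and TNFRSF13B at −1.15 ± 0.13 (adjusted p = 1.7e-06). CD28 had −0.50 (limma adjusted p = 0.064) and was called under TMM scaling (−0.61, adjusted p = 0.003). Of all calls between the combination and A-485, 49% were lower as deposited, 71.5% under TMM, 72.3% under median-ratio scaling and 62.2% under quantile normalization. The SLAMF7 call (−0.59, adjusted p = 0.012) was lost without A-485 replicate 1 (−0.49, adjusted p = 0.062) or combination replicate 1 (−0.47, adjusted p = 0.073).

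Adding A-485 to GNE-781 gave no call by limma for any of the 9 or for any other gene (0% called). At an unadjusted p below 0.05 there were 494 genes, 2 of them surface targets, while edgeR called 0 genes and DESeq2 called 5, none of the 9. For TNFRSF17 the combination had −0.31 relative to GNE-781 (95% interval −0.61 to −0.00), for CD38 −0.34 (−0.65 to −0.03), for CD28 −0.30 (−0.62 to 0.01), for TNFRSF13B −0.12 (−0.38 to 0.15) and for SLAMF7 0.00 (−0.27 to 0.28). Each interval holds no change or reaches close to it, and the data do not show that the 2 treatments act alike. The combination minus GNE-781 minus A-485 plus DMSO, a measure of departure from additive log2 effects, was called for 0 of the 9 genes and for 0.447% of all genes. It was positive for all 9 (0.06 to 0.62), which share the same libraries. The median over all genes was 0.04, and −0.04 under TMM scaling. The sign was not stable for SLAMF7, GPRC5D and LY9, which reached −0.07, −0.17 and −0.03 under alternative settings. The departure for TNFRSF13B was 0.52 (95% interval 0.15 to 0.89, limma adjusted p = 0.3). For TNFRSF17 it was 0.43 (0.00 to 0.85, limma adjusted p = 0.57).

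**Figure D3:**
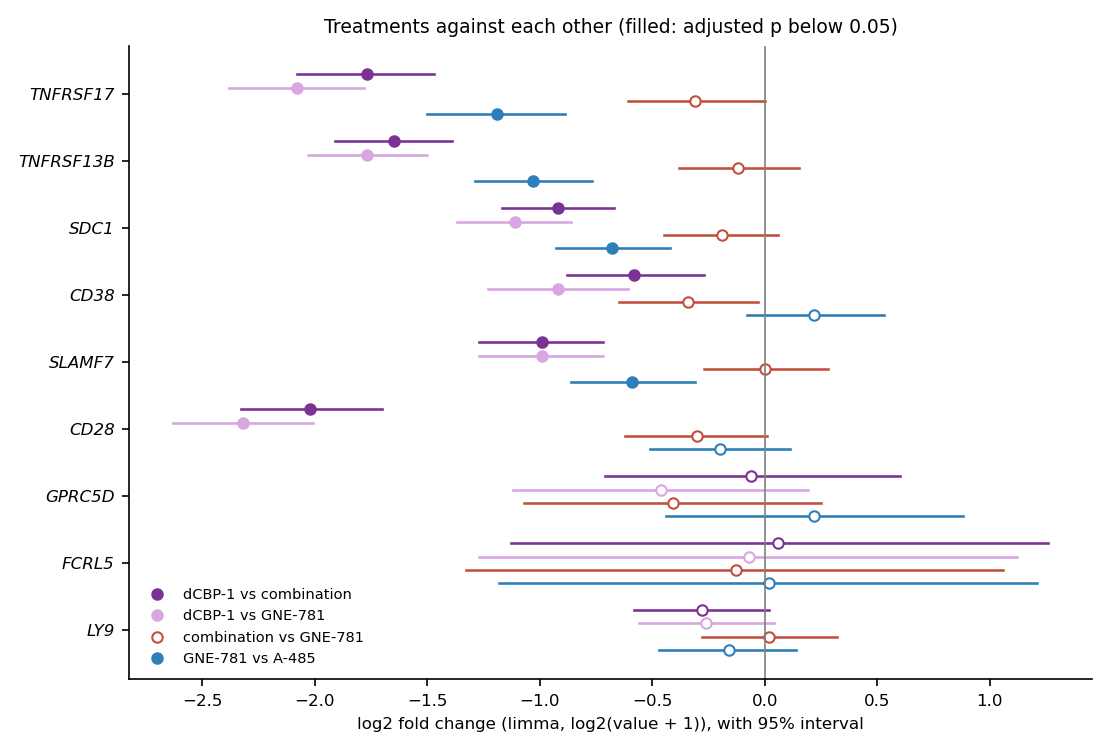
Log2 fold change of each surface target between treatments (horizontal axis, limma, log2 of value + 1), with 95% intervals; filled points have an adjusted p below 0.05. The dCBP-1 contrasts of CD28, TNFRSF17 and TNFRSF13B lie farthest left, from −1.65 to −2.32, while every combination against GNE-781 point is open.

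The listed genes around the surface targets are read against all genes tested with dCBP-1, of which 37.8% were called (18.5% lower, 19.3% higher), or 24% without DMSO replicates 1 and 2 together. Around BCMA and TACI, 16 of 18 listed ligands, receptors and adaptors were tested with dCBP-1, of which 4 rose and 7 fell (median −0.27, against 0.07 over all genes). BIRC3, an inhibitor of apoptosis that joins TRAF complexes, had 397, 330 and 337 normalized read counts with dCBP-1 and 2020, 1967 and 2497 with DMSO (−2.60 ± 0.14, limma adjusted p = 1.5e-15). NFKB2, a precursor subunit of NF-kB, had −2.02 ± 0.15, TRAF3, an adaptor that restrains the noncanonical NF-kB route, −1.11 ± 0.16, and CAMLG, a TACI-binding protein of the endoplasmic reticulum, rose (0.75 ± 0.12). The ligand gene TNFSF13 (APRIL) was below the filter, at no more than 10.2 counts in a library. The other ligand gene, TNFSF13B (BAFF), was tested, with a mean of 43.7 with DMSO and a log2 fold change of 1.23 with dCBP-1. Without DMSO replicates 1 and 2 together 4 rose and 8 fell of 15 tested, where 24% of all genes were called.

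Of 10 genes of gamma-secretase, which trims BCMA from the membrane, and of sheddases, 2 rose and 1 fell with dCBP-1 (median 0.20), a share near the 37.8% of all genes, and 1 rose and 1 fell without DMSO replicates 1 and 2 together. APH1B, a gamma-secretase subunit, was listed at 18.6, 21.8 and 22.5 normalized read counts with dCBP-1 and at 3.84, 6.33 and 0 with DMSO (limma adjusted p = 0.0021), a low level at which the fold depends on the pseudocount (2.74, and 4.45 without DMSO replicates 1 and 2 together). The protease ADAM10 fell slightly (−0.51 ± 0.15, adjusted p = 0.0082) and the catalytic subunit PSEN2 had 0.71 (0.35 and adjusted p = 0.46 without DMSO replicates 1 and 2 together).

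Of the other SLAM family genes and their adaptors 4 of 10 were tested, of which 1 rose and 1 fell with dCBP-1. CD48, a GPI-anchored receptor near SLAMF7 in the genome, had 554, 655 and 368 normalized read counts with dCBP-1 and 2097, 2114 and 1914 with DMSO (−1.99 ± 0.21, limma adjusted p = 1.1e-08). It also fell with the combination (−1.27) and GNE-781 (−1.04, and −0.95 with DMSO replicates 1 and 2 dropped). The kinase FYN rose with dCBP-1 (0.88), but had 0.43 (adjusted p = 0.2) without DMSO replicates 1 and 2 together. Of 7 other Fc receptor-like genes 5 were tested and FCRL2 was called (−2.17, limma adjusted p = 0.032). FCRL2 was low, at 1.86, 0 and 2.37 counts with dCBP-1 and 3.84, 15.8 and 9.71 with DMSO. Without DMSO replicates 1 and 2 together its value was −2.33.

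Among 19 tested of 21 syndecans, glypicans and heparan sulfate enzymes, 7 rose and 2 fell with dCBP-1 (median 0.01; 37.8% of all genes called), and 1 rose and 2 fell without DMSO replicates 1 and 2 together (24% of all genes called). XYLT2, a xylosyltransferase that starts the sugar chain, rose (1.16 ± 0.19), while the glypican GPC4 (−0.96 ± 0.17) and the sulfotransferase NDST1 (−0.75 ± 0.18) fell. Without these DMSO libraries XYLT2 had 0.70 and NDST1 −1.26, both still called. Among 11 tested of 14 genes of NAD metabolism, 2 rose and 2 fell (median 0.11), a share near that of all genes (37.8%), and 1 rose and 2 fell without DMSO replicates 1 and 2 together. NAMPT, which makes the NAD precursor NMN, had 511, 489 and 446 normalized read counts with dCBP-1 and 1243, 1041 and 1325 with DMSO (−1.31 ± 0.16, limma adjusted p = 7.3e-08). With the combination it had 971, 1223 and 1410 (−0.01, adjusted p = 0.97).

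For CD28, 9 of 14 ligands, relatives and signaling genes were tested with dCBP-1, of which 2 rose and 3 fell (median −0.21; 37.8% of all genes called), and 1 rose and 3 fell without DMSO replicates 1 and 2 together. CD86, a ligand of CD28, fell (−1.27 ± 0.18, limma adjusted p = 2e-06), with 104, 132 and 124 normalized read counts with dCBP-1 and 275, 286 and 310 with DMSO. The exchange factor VAV1 (−1.08 ± 0.16) and the related receptor PDCD1 (−2.92 ± 0.43) fell, and PIK3CD, a lipid kinase subunit, rose (2.02 ± 0.32). LCK and CTLA4, a T cell partner and a relative of CD28, had at most 3.57 and 3.68 counts in a library and were not tested. Of 5 class C orphan receptors other than GPRC5D, GPRC5B alone was tested; it was listed at 24.2, 21.8 and 22.5 counts with dCBP-1 and 0, 5.27 and 2.43 with DMSO (adjusted p = 0.00054).

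Of 36 tested of 39 other surface antigens of plasma cells and myeloma, 3 rose and 25 fell with dCBP-1 (median −0.78), where 19.3% of all genes were higher and 18.5% lower. In this list 2 rose and 19 fell with the combination (9.6% of all genes lower), 2 and 17 with GNE-781 (8.81% lower), and 0 and 3 with A-485 (1.79% lower). Without DMSO replicates 1 and 2 together, 1 rose and 23 fell with dCBP-1 (24% of all genes called). The chemokine receptor CCR1 had 619, 494 and 499 normalized read counts with dCBP-1 and 7681, 8024 and 9406 with DMSO (−3.96 ± 0.13, limma adjusted p = 4.8e-20). The interleukin 6 receptor IL6R (−2.90 ± 0.14), the integrin ITGA4 (−2.25 ± 0.16) and the chemokine receptor CXCR4 (−2.20 ± 0.16) fell too. Of the 10 plasma cell markers 8 fell (median −1.41). The fall of the surface targets thus stood beside a lower summed level of these markers. The part of one in the other was not tested.

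**Figure D4:**
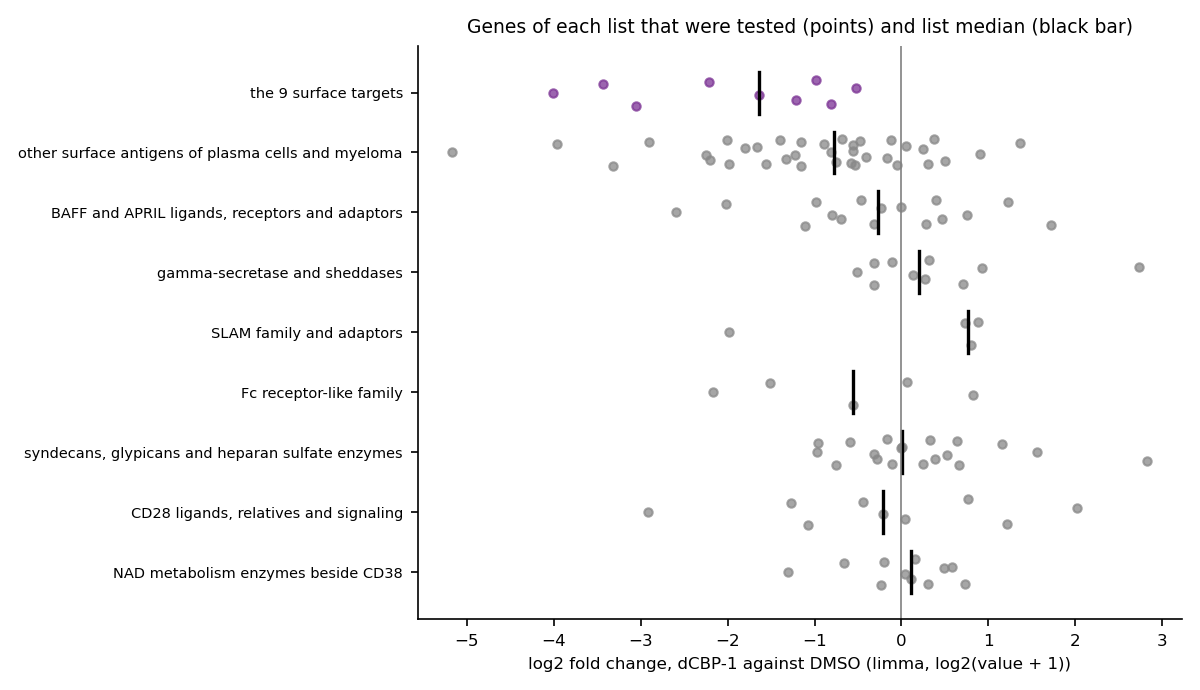
Log2 fold change with dCBP-1 against DMSO (horizontal axis, limma, log2 of value + 1) for the tested genes of each list (points, 1 per gene) with the list's median (black bar). The 9 surface targets all lie below 0 with a median of −1.64, and the other surface antigens have a median of −0.78.

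For each surface target the genes with the most similar course over the 15 libraries were found by the root mean square difference of log2 levels, each centred on its own mean. These are descriptions over libraries that share treatments, with 7798 or 7799 candidate genes. The nearest gene to TNFRSF17 was TNFRSF13B itself (difference 0.24), then TNS3 (0.29), which encodes a tensin. TNFRSF13B was nearest to TNS3 and RAB36 (0.22 each), a tensin and a small GTPase. TNS3 fell by 3.64 ± 0.15 with dCBP-1 and RAB36 by 3.11 ± 0.16 (limma adjusted p = 4.2e-18 and 8.6e-16).

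SDC1 was nearest to TPST2 (0.12), a tyrosylprotein sulfotransferase, and EEF2KMT (0.13). CD38 was nearest to LITAF (0.13) and the ceramide kinase gene CERK (0.14), and SLAMF7 to TNFAIP8 (0.13) and the RNA polymerase I subunit gene POLR1B (0.14). CD28 was nearest to PLD6 (0.16) and the transcription factor gene BHLHE41 (0.17); BHLHE41 had −3.14 ± 0.14 with dCBP-1 and −0.94 ± 0.14 with the combination, close to the −3.05 and −1.03 of CD28. LY9 was nearest to DDX19A (0.09) and BAG1 (0.10). For the low genes the nearest were TECR (0.29) and TCIRG1 (0.34) for GPRC5D, and SETD1A (0.45) and CPNE5 (0.46) for FCRL5. Between the surface targets themselves the difference was smallest for TNFRSF17 and TNFRSF13B, then 0.27 for SDC1 and SLAMF7 and 0.29 for CD38 and LY9, and largest for TNFRSF17 and FCRL5 (1.27).

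The nearest tested gene on either side of each surface target was taken from the RefSeq order (GRCh38.p14). Beside TNFRSF13B, the pseudogene TBC1D27P had 37.2, 75.1 and 66.4 normalized read counts with dCBP-1 and 398, 564 and 410 with DMSO. It fell with dCBP-1 (−2.96 ± 0.22, limma adjusted p = 6.1e-12), the combination (−1.53 ± 0.22) and GNE-781 (−1.40 ± 0.22), as TNFRSF13B did. Its pseudogene status leaves reads from similar genes possible. On the other side LINC02090 had 5, 0 and 1 reads with dCBP-1 and 26, 22 and 26 with DMSO, and was called with dCBP-1 only (adjusted p = 1.3e-05), which does not show that its response differs between treatments.

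Beside TNFRSF17, SNX29, a sorting nexin gene, fell with dCBP-1 (−1.75 ± 0.19, limma adjusted p = 1.7e-08), the combination (−0.91) and GNE-781 (−0.67, and −0.66 with DMSO replicates 1 and 2 dropped). NPIPB2 had −1.43 ± 0.19 with dCBP-1, but belongs to a family of near-identical copies and is uncertain. RAPH1 beside CD28 had 80.1, 98.5 and 73.5 normalized read counts with dCBP-1 and 150, 267 and 335 with DMSO (−1.50 ± 0.23, limma adjusted p = 5.4e-06). It had −0.05 with the combination and −0.09 with GNE-781 (−0.54 and −0.58 without DMSO replicates 1 and 2 together). PARD3B, on the other side of CD28, had 0.51 with dCBP-1 (limma adjusted p = 0.074). It rose with the combination (0.86, adjusted p = 0.007) and GNE-781 (0.66, adjusted p = 0.042). With DMSO replicates 1 and 2 dropped the PARD3B values were −0.22 with dCBP-1, 0.12 with the combination and −0.07 with GNE-781. Beside SDC1, LAPTM4A rose with dCBP-1 (0.74 ± 0.14, adjusted p = 8.8e-05), but had 0.44 (adjusted p = 0.07) with DMSO replicates 1 and 2 dropped, and PUM2 had −0.19 (adjusted p = 0.25). The neighbours of CD38 (FAM200B and TAPT1), GPRC5D (RPL13AP20 and HEBP1) and FCRL5 (ETV3 and FCRL4) were not called with dCBP-1, and F11R, the neighbour of LY9 away from SLAMF7, rose (0.41 ± 0.13, adjusted p = 0.013), a call lost when these DMSO libraries were dropped (0.27, adjusted p = 0.28). The strand used in counting is not given in the sources used here, so reads of overlapping genes on opposite strands cannot be told apart.

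**Figure D5:**
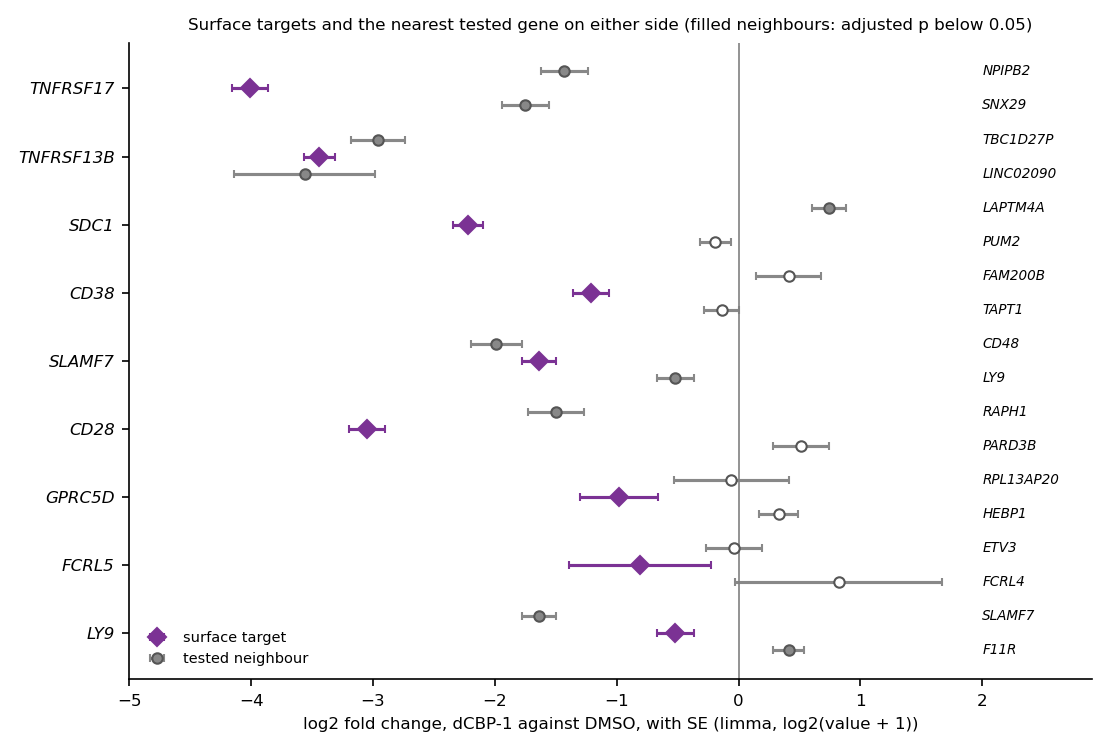
Log2 fold change with dCBP-1 against DMSO (horizontal axis, limma, log2 of value + 1, bars 1 SE) for each surface target (diamonds) and the nearest tested gene on either side (circles, filled where the adjusted p is below 0.05; names at the right). Both neighbours of TNFRSF17 and of TNFRSF13B lie below 0, while LAPTM4A beside SDC1 and F11R beside LY9 lie above 0.

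In the upstream windows 11 short motifs were searched on both strands. The share of all 35116 RefSeq windows of 300 bases that hold the motif is given for scale. The E2 box CAGGTG (in 20.6% of all windows) was found for TNFRSF13B, SDC1, CD38 and CD28, and reads CACCTG in the 3 printed sequences, being on the opposite strand. A 10-base NF-kB core, GGGA and CC with any 4 bases between them (25.6%), was found at a pair of places for TNFRSF13B, once on each strand (GGGAAAACCC, 24 bases before the start, and GGGCCATCCC on the opposite strand). It was also found for FCRL5 and in a second SDC1 window, which was searched too and is not printed.

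The composite core of ETS and IRF factors, GGAA and GAAA with any 2 bases between them (2.82%), was found for CD38 and, on the opposite strand, CD28. In CD38 it is the run GGAAGGGAAA, 43 bases before the start. The core CCACG of the unfolded protein response element (38.1%) was found for SDC1, CD38 and CD28, and the Maf recognition core TGCTGAC (4.19%) and the TATA box TATAAA (11.5%) for GPRC5D alone among the 6. The octamer ATGCAAAT (1.77%), the E-box CACGTG (7.26%), the interferon response core, GAAA repeated with any 2 bases between (3.57%), the AP-1 site TGANTCA (7.71%) and the cAMP response element TGACGTCA (1.85%) were not in these windows. A match is a match of letters in this window and no measure of binding.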

How the data were processed

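The authors deposited 1 table of normalized read counts (coverage-like signal, never negative) for MM.1S cells; per the labels' protocols, RNA from Trizol lysates with ERCC spike-ins was made into Lexogen QuantSeq 3′ libraries, and the submitters' processing notes name build hg19. Aligner, counter and normalization are not given in the sources used here. Per library, 100% of values were whole multiples of 1 step (tolerance 0.01 reads), so reads were recovered; edgeR called 6612, 4097, 3505 and 364 genes on them for dCBP-1, the combination, GNE-781 and A-485 against DMSO. The table had 47459 gene rows, 1 row without values and 0 ERCC rows; 96.5% of identifiers had a symbol.

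Values were analysed as log2(value + 1), for genes at 5 or more in at least 3 of 15 libraries (16104), with limma-trend (limma 3.58.1, R 4.3.3) in 1 model of 5 group means, two-sided, Benjamini-Hochberg adjusted per comparison, called below 0.05. A fold change on this scale understates that of low genes. Results were recomputed with edgeR 4.0.16 and DESeq2 1.42.0 on the reads, with a replicate block, with a model of the compared groups only, with the filter at 20 or dropped, with pseudocounts 0.25 and 5, with quantile, median-ratio or TMM scaling, and with libraries left out. Scripts were tested on simulated data.

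Named are the 9 surface targets, up to 4 genes per list with the smallest p for dCBP-1 (with the list's other genes where a level is given to describe it), the 2 most similar genes per target and the nearest tested neighbours. Targets and lists were chosen with earlier results of these data known. TNFSF13B and the genes below the filter named beside CD28 and BCMA were chosen after their values were seen. Libraries were grouped by title. Replicates differed by more than counting error (chi-square per degree of freedom 5.3 to 42.2). Nothing says that they were separate cultures, so the p-values rest on a spread that may be technical. The values refer to hg19; the only genome positions given are those of the printed RefSeq windows (GRCh38.p14), and none was converted between builds.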

Additional observations from a re-analysis of the deposited data

How the results depend on the processing

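Of 2653 log2 fold changes of the 9 surface targets recomputed under the alternatives, 2582 kept their side of the threshold. A call was gained by 29 and lost by 42, and 0 calls reversed. Some values that were not called changed sign, such as SLAMF7 with A-485 against DMSO (−0.16 to 0.06). GPRC5D with dCBP-1 against the combination did so too (−0.43 to 0.26). Counts of targets called stayed within 1.5 times the reported count except with A-485 against DMSO, where 2 became 5 under TMM scaling, median-ratio scaling, edgeR and DESeq2, 4 under quantile normalization, 1 with only the groups compared, 0 without DMSO replicates 1 and 2 together, and 0 to 3 with 1 library left out (0 without DMSO replicate 2, 1 without A-485 replicate 3); the cause was not tested. Leaving out 1 library gave 7 to 8 targets called with dCBP-1, 6 to 7 with the combination and 5 with GNE-781 each time. Over all genes, calls ran from 3802 to 6831 with dCBP-1 (reported: 6092), 1081 to 4389 with the combination (3383), 889 to 3771 with GNE-781 (2679) and 13 to 1132 with A-485 (345), the lowest each time without DMSO replicates 1 and 2 together. They ran from 695 to 1763 for dCBP-1 against the combination (993), 1033 to 2588 against GNE-781 (1500), 188 to 1406 for the combination against A-485 (516), 57 to 763 for GNE-781 against A-485 (161), 0 to 5 for the combination against GNE-781 (0) and 1 to 211 for non-additivity (72). Scaling moved the median of all genes by at most 0.10. Same-numbered libraries did not deviate together (correlations −0.157 to 0.0995 over 30 pairs, 0 above 0.1), so the numbers are not taken as a pairing; with a replicate block 8, 7, 5 and 2 targets were called against DMSO with dCBP-1, the combination, GNE-781 and A-485, 6 for dCBP-1 against A-485 and 3 for GNE-781 against A-485. Non-additivity needs 4 groups and had no fit of fewer. FCRL5, at 4 to 23 reads, and GPRC5D are limited by depth or spread.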
